A study of Homo sapiens with 6 samples.

Results

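The genes described here encode 10 cyclic nucleotide phosphodiesterases, PDE7A, PDE7B, PDE4A, PDE4B, PDE4D, PDE3B, PDE2A, PDE10A, PDE11A and PDE5A, chosen by name from the 15651 genes of a table of RNA sequencing values. All 10 were in the table and all 10 passed the filter on low values, which asked for 3 or more libraries with a normalized count of 4 or more and left 15246 genes for testing. The cells were MDA-MB-231, an established line of human triple-negative breast cancer (TNBC) for which the labels give no added allele or transgene, and RNA was sequenced in 3 libraries from cells given DMSO, the solvent control, and 3 from cells given BRL-50481, a small-molecule inhibitor of PDE7. The dose and time were 50 μM for 72 h according to the Methods and the treatment text, whereas a separate treatment tag reads 5 μM and 48 h. The inhibitor acts on the enzyme, so mRNA levels do not measure how far PDE7A was inhibited, and a single line and a single compound cannot separate effects on PDE7 from others.

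Cyclic nucleotide phosphodiesterases break down cAMP and cGMP, the second messengers that adenylyl and guanylyl cyclases make. cAMP activates protein kinase A (PKA), which phosphorylates the transcription factor CREB, and several phosphodiesterase genes are themselves known targets of cAMP signalling in other cells. The PDE4, PDE7 and PDE8 families act on cAMP only, PDE3B on cAMP in a manner that cGMP inhibits, PDE2A, PDE10A and PDE11A on both nucleotides, and PDE5A on cGMP only.

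The libraries held 30750573 to 33446984 reads on genes, and a normalized count, the read count divided by a size factor of its library, was within a few percent of 1 read. VIM, CD44 and AXL, markers of the mesenchymal state of this line, were each at 30982 normalized counts or more in every library. PGR was at 0 to 7.75 normalized counts, whereas ERBB2 (1606 to 1979) and EPCAM (675 to 773), which were also listed as low markers, were expressed in every library. CDH1, an epithelial marker, was low but moved with treatment, from 31.7 to 48.6 normalized counts in DMSO up to 93.1 to 105 in BRL-50481, and its part in the results below was not tested. Whether the RNA was selected with oligo-dT, as the labels have it, or depleted of ribosomal RNA, as the series text has it, is not settled by these sources. In bulk RNA, fewer cells of a kind and less RNA per cell cannot be told apart.

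PDE7A, the target of the inhibitor, was lower after BRL-50481, and 2 other members, PDE4A and PDE3B, were lower with it, whereas the other 7 were higher. All 10 passed the test, limma on log2(normalized count + 1) with Benjamini-Hochberg adjustment over all genes and a threshold of 0.05, in a comparison in which 58.7% of all genes tested passed it, 28.9% as higher and 29.8% as lower. In all 10 the DMSO and BRL-50481 libraries did not overlap, as in 64.2% of all genes tested. The median log2 fold change of the members was 0.70, beside 0.01 over all genes. Being called or not overlapping was thus common in this comparison.

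**Figure D1:**
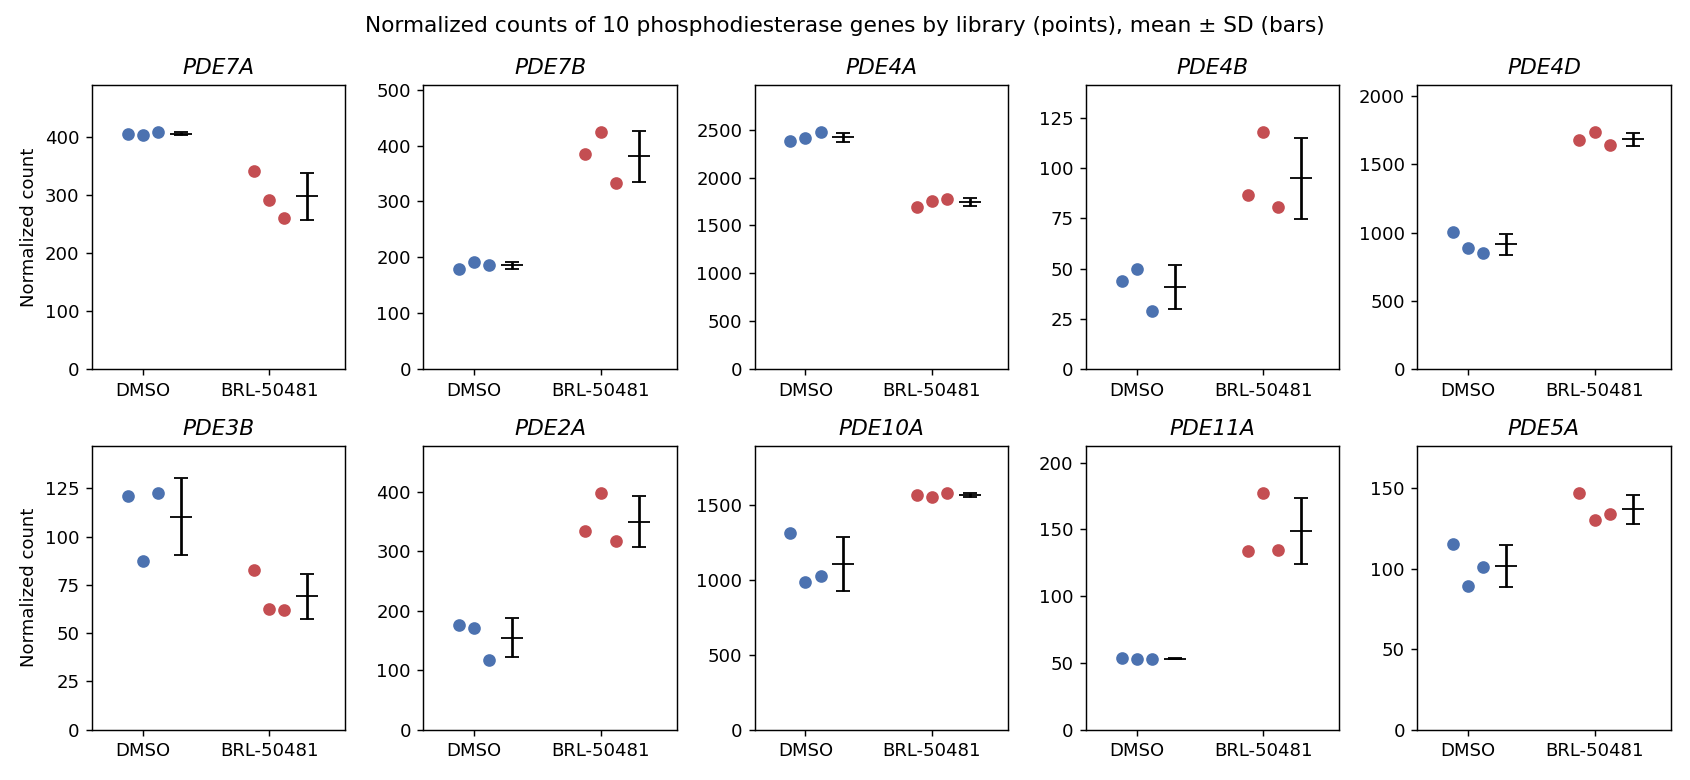
Normalized count (vertical axes, each from 0) of the 10 phosphodiesterase genes in the 3 DMSO and 3 BRL-50481 libraries, one panel per gene, with points for libraries and bars for the mean ± SD. PDE7A, PDE4A and PDE3B lie lower with BRL-50481 and the other 7 higher, with no overlap between groups in any panel.

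Among the cAMP-specific PDE7 enzymes, PDE7A (chr8:65714334-65842322, minus strand; hg38 positions here and below from GENCODE release 44) was at 405.8, 404.6 and 408.6 normalized counts in the 3 DMSO libraries. With BRL-50481 it was at 341.3, 292.1 and 260.7. The DMSO libraries lay within 4.02 normalized counts of each other, and the treated libraries were more spread and all lower. Read counting alone gives a wider spread than 4.02 at this level, so the closeness of the controls is no measure of precision. Over all genes with enough reads, the DMSO libraries were the more spread group, as given at the end. The mean was 406 ± 2.06 (SD, n = 3) in DMSO and 298 ± 40.6 (SD, n = 3) in BRL-50481, a log2 fold change of -0.45 (SE 0.10, 95% interval -0.68 to -0.23, limma adjusted p = 0.00199). Leaving out 1 library moved the log2 fold change to between -0.56 and -0.36. A correction of each library for transcript length and GC content moved it further, to -0.63 (limma adjusted p = 5.13e-05). In GENCODE, 4.20% of the exonic bases of PDE7A are shared with another gene on the same strand (ENSG00000272155), so a small part of its reads could come from that gene.

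PDE7B (chr6:135851701-136195574, plus strand), the other member of that family, moved the opposite way. It was at 179.6, 192.0 and 185.9 normalized counts in DMSO and at 385.6, 424.1 and 332.5 in BRL-50481. Every treated library was above every control, and the lowest of them was 1.73 times the highest control. The log2 fold change was 1.02 (SE 0.11, 95% interval 0.79 to 1.26, limma adjusted p = 3.58e-06), larger than that of 94.3% of all genes tested, whereas PDE7A ranked at the 16.5th percentile.

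The ratio of PDE7B to PDE7A, in which the size factor of a library cancels, was 0.443, 0.475 and 0.455 in DMSO and 1.13, 1.45 and 1.275 in BRL-50481. PDE7A was thus the more abundant by normalized count in every control library and PDE7B in every treated one. Levels of different genes are compared here and below per kilobase of the canonical transcript. Which transcripts these cells express was not determined, so such comparisons depend on the canonical lengths. On that scale the mean ratio went from 0.591 ± 0.0209 to 1.66 ± 0.208 (SD, n = 3 each). The log2 ratio differed by 1.48 between groups, with p = 0.1 in an exact two-sided permutation test over libraries, which is the smallest p that 3 against 3 libraries can give. The sum of both genes was 585 to 597 normalized counts in DMSO and 593 to 727 in BRL-50481, and there the groups overlapped (exact two-sided permutation p = 0.3).

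**Figure D2:**
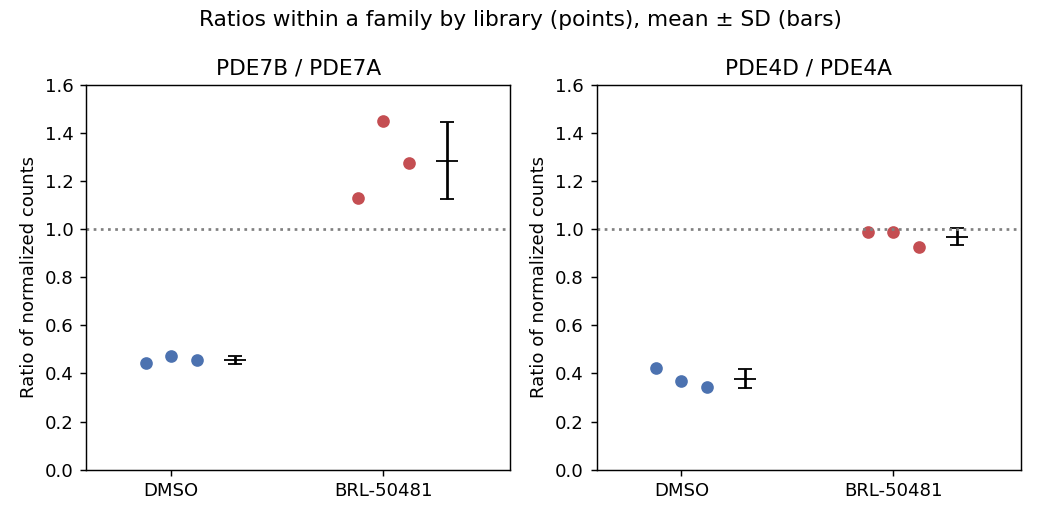
Ratio of normalized counts (vertical axes) of PDE7B to PDE7A and of PDE4D to PDE4A in each library, with points for libraries, bars for the mean ± SD and a dotted line at a ratio of 1. The PDE7B to PDE7A ratio lies below 1 in the 3 DMSO and above 1 in the 3 BRL-50481 libraries, and the PDE4D to PDE4A ratio lies between 0.345 and 0.422 in DMSO and between 0.928 and 0.989 in BRL-50481.

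Promoter windows of PDE7B and PDE4A are shown because these genes moved in opposite directions and both windows hold the full cAMP response element to which CREB binds, TGACGTCA. The windows come from RefSeq (GRCh38.p14), where they run from 250 bases before a gene's start to 50 after it, and only the stretch from 250 bases before the start to the first few bases after it is printed. Both were read 5′ to 3′ on the plus strand, at chr6:135851451-135851705 for PDE7B and chr19:10416523-10416777 for PDE4A. Capitals mark the full element and its core, TGACG or CGTCA on the other strand, counted apart from the full element.
PDE7B: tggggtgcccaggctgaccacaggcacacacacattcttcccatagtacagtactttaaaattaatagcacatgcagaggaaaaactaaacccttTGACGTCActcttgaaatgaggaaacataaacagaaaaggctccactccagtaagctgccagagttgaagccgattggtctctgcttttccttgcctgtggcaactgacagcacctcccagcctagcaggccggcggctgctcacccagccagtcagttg
PDE4A: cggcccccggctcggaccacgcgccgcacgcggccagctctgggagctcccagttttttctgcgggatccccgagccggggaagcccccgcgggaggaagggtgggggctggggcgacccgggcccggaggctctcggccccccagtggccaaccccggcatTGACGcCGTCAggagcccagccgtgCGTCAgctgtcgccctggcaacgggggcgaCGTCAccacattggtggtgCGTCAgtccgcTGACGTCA

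The element of PDE7B starts 155 bases before the gene's start. That of PDE4A starts 3 bases before it, and 5 further cores lie 88, 82, 63, 33 and 14 bases before it. The full element was in 1.85% of the 35116 windows searched, the full element or a core in 24.6%, and the full element with at least 3 further cores in 0.0199%. The last pattern was not planned and is that of the PDE4A window shown, so its share does not measure how unusual that window is. Only 1 of the 5 windows of PDE4A held the full element. A core alone was in 1 of 8 windows of PDE4D and 1 of 3 of PDE5A. None was found in the windows of PDE2A (1), PDE4B (6), PDE10A (2) and PDE11A (4), and PDE3B had no window. Windows on chromosome 8, where PDE7A lies, were left out of the search. PDE7A was therefore not searched, and the shares of windows above do not cover that chromosome. These are matches of letters and not measured binding.

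The PDE4 family, the main cAMP-specific phosphodiesterases and the target of rolipram, was split. PDE4A (chr19:10416773-10469630, plus strand) was at 2377, 2409 and 2473 normalized counts in DMSO and 1694, 1757 and 1771 in BRL-50481. The groups were far apart relative to their spread, with a log2 fold change of -0.48 (SE 0.05, limma adjusted p = 5.55e-06). PDE4D (chr5:58969038-60522120, minus strand) was at 1003, 885.5 and 853.9 in DMSO and 1676, 1737 and 1643 in BRL-50481. It rose by 0.88 on the log2 scale (SE 0.07, limma adjusted p = 2.93e-07), the smallest adjusted p among the 10 genes. With the length and GC correction it rose by 0.70.

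PDE4B (chr1:65792514-66374579, plus strand) was much less abundant. It was at 43.7, 50.0 and 28.6 normalized counts in DMSO and 86.6, 117.8 and 80.4 in BRL-50481. The lowest treated library was above the highest control, and the log2 fold change was 1.22 (SE 0.23, 95% interval 0.73 to 1.71, limma adjusted p = 0.000482).

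Within the PDE4 family, PDE4A made up 69.3 to 73.6% of the summed normalized count in DMSO and 48.4 to 50.5% in BRL-50481. PDE4D went from 25.4 to 29.2% up to 46.8 to 48.3%. The share of PDE4A fell by 22.4 percentage points, and that of PDE4D was 20.6 points higher (exact two-sided permutation p = 0.1 for each). The family's sum was 3349 to 3430 normalized counts in DMSO and 3468 to 3629 in BRL-50481, 1.05 times as high on average. The mix of the family thus changed much more than its sum. The log2 ratio of PDE4D to PDE4A differed by 1.36 between groups (exact two-sided permutation p = 0.1), and per kilobase PDE4A stayed above PDE4D in every library, at a mean ratio of 0.227 in DMSO and 0.581 in BRL-50481.

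PDE3B (chr11:14643804-14872044, plus strand), the cGMP-inhibited enzyme known from fat and liver cells, where it mediates part of the insulin response, was lower. It was at 121.0, 87.2 and 122.6 normalized counts in DMSO and 82.6, 62.4 and 62.0 in BRL-50481. The lowest control, replicate 2, was 4.63 normalized counts above the highest treated library. The log2 fold change was -0.66 (SE 0.18, 95% interval -1.06 to -0.27, limma adjusted p = 0.00664), and it reached an adjusted p of 0.0324 without BRL-50481 replicate 2.

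The 3 members that act on both nucleotides, PDE2A, PDE11A and PDE10A, rose. PDE2A (chr11:72576141-72674591, minus strand), which cGMP stimulates, was at 176.6, 171.4 and 116.4 normalized counts in DMSO and 333.2, 397.9 and 317.9 in BRL-50481. DMSO replicate 3 was well below the other controls, and all treated libraries were at least 1.80 times the highest control. The log2 fold change was 1.19 (SE 0.15, limma adjusted p = 2.13e-05), and 1.00 without DMSO replicate 3.

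PDE11A (chr2:177623244-178108339, minus strand) had the largest log2 fold change of the 10 genes. It was at 53.6, 52.9 and 53.1 normalized counts in DMSO and 133.9, 177.3 and 134.7 in BRL-50481. The log2 fold change was 1.45 (SE 0.16, 95% interval 1.11 to 1.79, limma adjusted p = 4.46e-06), above 97.8% of all genes tested. The controls lay within 0.683 normalized counts of each other, and the treated libraries within 43.4. Read counting alone gives a wider spread than 0.683 at this level, so the closeness of the controls is no measure of precision.

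PDE10A (chr6:165327287-165988117, minus strand), best known from the striatum of the brain, was abundant here. It was at 1310, 982.5 and 1024 normalized counts in DMSO and 1567, 1548 and 1578 in BRL-50481. DMSO replicate 1 stood above the other controls and below every treated library. The log2 fold change was 0.51 (SE 0.09, limma adjusted p = 0.000317). It was 0.32 after a correction of each library for transcript length and GC content, and still called.

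PDE5A (chr4:119494397-119628804, minus strand), the cGMP-specific target of sildenafil, had the log2 fold change of the smallest absolute size of the 10. It was at 115.1, 89.1 and 101.1 normalized counts in DMSO and 147.0, 129.9 and 133.8 in BRL-50481. The groups did not overlap, and the log2 fold change was 0.43 (SE 0.14, 95% interval 0.13 to 0.73, limma adjusted p = 0.0174). The call was lost with quantile normalization (limma adjusted p = 0.067), with the length and GC correction (0.25 on the log2 scale, adjusted p = 0.0854), without DMSO replicate 2 (0.0642) and without BRL-50481 replicate 1 (0.0729).

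Among the 10 members, the mean normalized count per kilobase in DMSO was highest for PDE4A, at 494 ± 9.95 (SD, n = 3). PDE10A (118 ± 19.1) and PDE4D (112 ± 9.63) followed and did not differ beyond their spread. Next came PDE7A at 58.4 ± 0.296, an SD that, like that of PDE11A below, is smaller than read counting alone gives. PDE2A (36.1 ± 7.78) and PDE7B (34.5 ± 1.15) were again within their spread of each other, as were PDE3B (18.4 ± 3.34) and PDE5A (14.6 ± 1.87), and PDE4B (8.99 ± 2.42) and PDE11A (5.72 ± 0.0374) were lowest. In BRL-50481 PDE4A remained the highest of the 10 at 355 ± 8.32 per kilobase, PDE4D (207 ± 5.81) stood above PDE10A (168 ± 1.62), and PDE2A (81.6 ± 9.91) and PDE7B (70.7 ± 8.54), whose libraries overlapped, stood above PDE7A (42.8 ± 5.83). PDE3B, at 11.5 ± 1.96, was then the lowest of the 10, below PDE11A (16.0 ± 2.67), PDE5A (19.7 ± 1.29) and PDE4B (21.0 ± 4.43), whose libraries overlapped.

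Of 14 other phosphodiesterase genes listed, 8 were in the table and 6 were tested, and 3 of these were higher and 3 lower. Of all genes tested, 58.7% were called. PDE8A, a cAMP-specific enzyme of high affinity, was at 1237, 1072 and 1178 normalized counts in DMSO and 1647, 1800 and 1739 in BRL-50481. Its log2 fold change was 0.57 (SE 0.07, limma adjusted p = 9.59e-06), and its groups were well apart. Per kilobase of the canonical transcripts it went from 288 ± 20.8 in DMSO, below PDE4A, to 428 ± 19.1 in BRL-50481, above it. PDE8B was at 102 to 119 normalized counts in DMSO and 138 to 192 in BRL-50481 (log2 fold change 0.53), but 51.6% of its exonic bases are shared with another gene on the same strand, and its call was lost without BRL-50481 replicate 1 (limma adjusted p = 0.0526).

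The 3 lower genes differ in what they encode. PDE6D, which despite its name is a carrier of prenylated proteins and not a hydrolase, was at 976 to 1118 normalized counts in DMSO and 766 to 798 in BRL-50481 (log2 fold change -0.43). PDE1C, a calcium- and calmodulin-activated enzyme for both nucleotides, was at 152 to 180 in DMSO, against 119 to 130 in BRL-50481 (log2 fold change -0.39), and its call was lost without DMSO replicate 1 (limma adjusted p = 0.0527) and without BRL-50481 replicate 1 (0.0558). PDE9A, a cGMP-specific enzyme whose mean was just under the 100 normalized counts set for giving values, was at 92.1 to 148 in DMSO, against 59.4 to 70.5 in BRL-50481 (log2 fold change -0.89, limma adjusted p = 0.00112). PDE4C was higher at 4.90 to 18.1 normalized counts over all libraries, with 73.8% of its exonic bases shared on the same strand and its call lost with quantile normalization (limma adjusted p = 0.0641), without BRL-50481 replicate 2 (0.0964) and without BRL-50481 replicate 3 (0.0541). PDE3A and PDE6A did not pass the filter. PDE1A, PDE1B, PDE6B, PDE6C, PDE6G and PDE6H were not analysed here.

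**Figure D3:**
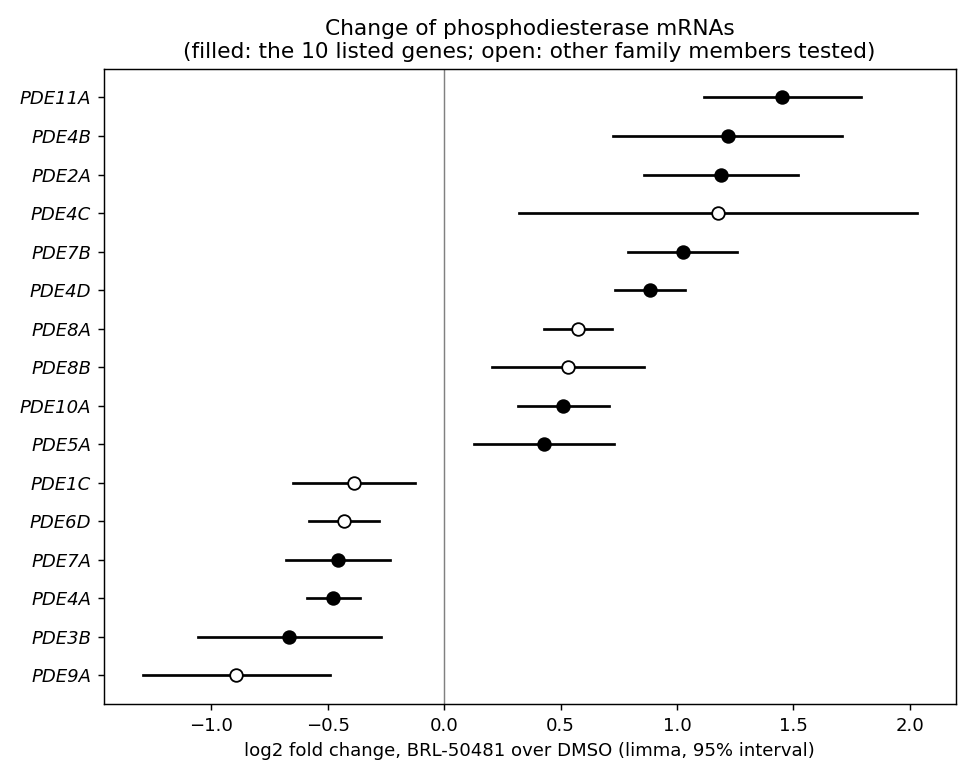
Log2 fold change of BRL-50481 over DMSO (horizontal axis) with its 95% limma interval for the 10 phosphodiesterase genes (filled) and the 6 other family members tested (open), in order of size. PDE11A is at the top with 1.45 and PDE9A at the bottom with -0.89, and no interval includes 0.

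The summed normalized count of the 14 phosphodiesterase genes in the table whose enzymes hydrolyse cAMP was 7198, 6579 and 6725 in DMSO and 8270, 8602 and 8206 in BRL-50481. The treated libraries were all higher, by 0.29 on the log2 scale or 1.22 times on average (exact two-sided permutation p = 0.1). This sum adds mRNA of enzymes that differ in activity and is no measure of hydrolysis. The 4 genes called lower summed to 3101 ± 48.6 in DMSO and 2234 ± 8.81 in BRL-50481, and the 9 called higher to 3730 ± 332 and 6124 ± 204 (SD, n = 3 each). The first sum fell by 868 normalized counts and the second gained 2395. Because the genes were sorted by their calls in these same libraries, the direction of each sum was set by the sorting. Only the sizes are described.

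PDE4A made up 33.0, 36.6 and 36.8% of that sum in DMSO and 20.5, 20.4 and 21.6% in BRL-50481, so that it was the leading gene in every control library. In BRL-50481 PDE4A (20.8 ± 0.651%), PDE8A (20.7 ± 0.673%) and PDE4D (20.2 ± 0.126%; SD, n = 3 each) were nearly equal by normalized count, and the libraries of PDE8A overlapped those of the other two. Per kilobase they were apart in BRL-50481, with PDE8A at 28.3 to 29.9% of the sum, PDE4A at 23.7 to 25.1% and PDE4D at 14.0 to 14.2%, whereas in DMSO PDE4A led at 37.7 to 41.2%, before PDE8A at 22.2 to 23.8% and PDE4D at 8.53 to 9.54%. PDE4D had been at 13.4 ± 0.625% and PDE8A at 17.0 ± 0.634% in DMSO. The share of PDE7A went from 5.95 ± 0.276% to 3.57 ± 0.497% and that of PDE7B from 2.73 ± 0.214% to 4.55 ± 0.450%. These moved in opposite directions, and together the PDE7 genes held 8.13 to 9.07% of the sum in DMSO and 7.23 to 8.79% in BRL-50481, with overlapping groups (exact two-sided permutation p = 0.4).

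Of the less abundant members, the share of PDE2A went from 2.26 to 4.18%, that of PDE11A from 0.779 to 1.77% and that of PDE4B from 0.597 to 1.13%. PDE3B went from 1.61 to 0.827%. The groups did not overlap for these 4, nor for PDE4A, PDE4D, PDE7A and PDE7B, and each had an exact two-sided permutation p of 0.1, or 0.127 after adjustment over the 14 genes. By normalized count, PDE10A was the member whose share overlapped between groups, at 18.2, 14.9 and 15.2% in DMSO and 19.0, 18.0 and 19.2% in BRL-50481 (exact two-sided permutation p = 0.2). Per kilobase its groups did not overlap, at 10.9, 8.79 and 8.94% in DMSO and 11.6, 10.9 and 11.7% in BRL-50481 (exact two-sided permutation p = 0.1). On that scale, the share of PDE7A differed by -1.80 percentage points in place of -2.39, and that of PDE4D by 5.03 in place of 6.79.

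**Figure D4:**
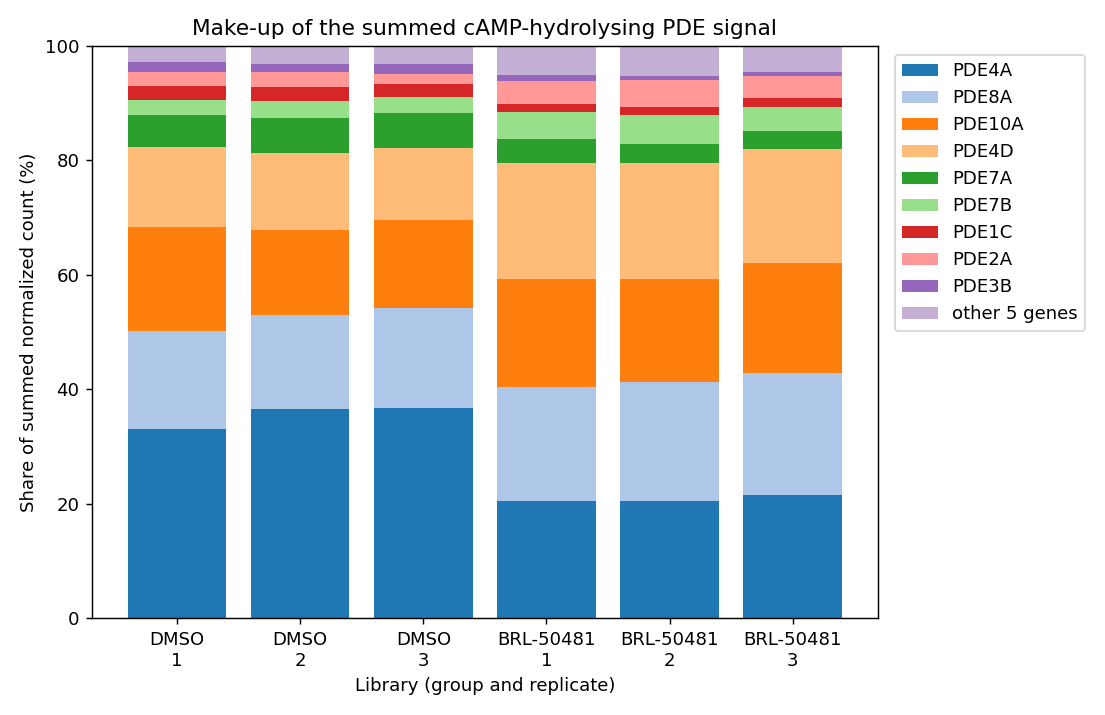
Share of each gene in the summed normalized count of 14 cAMP-hydrolysing phosphodiesterase genes (vertical axis, percent), one stacked bar per library, with the 5 least abundant genes added together. PDE4A is the largest block in the 3 DMSO libraries, and PDE4A, PDE8A and PDE4D are nearly equal in the 3 BRL-50481 libraries on this scale, which is not corrected for transcript length (per kilobase PDE8A leads there, at 28.3 to 29.9%).

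The genes whose log2 values were most like those of PDE7A over the 6 libraries, among 11454 genes whose mean normalized count reached 100, were VCPKMT (Pearson r = 0.9997), RAP1A (0.9926) and ZNF100 (0.9923). With 6 libraries in 2 groups such values are common, and 938 genes had r over 0.9. Their log2 fold changes were -0.43, -0.11 and -0.33.

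On the side of cAMP synthesis, 4 adenylyl cyclases were tested, and 2 were lower and 0 higher. Beside this count and those of the lists below, 28.9% of all genes tested were called higher and 29.8% lower. ADCY3 was at 1715 to 1781 normalized counts in DMSO and 1333 to 1377 in BRL-50481, a log2 fold change of -0.37 (limma adjusted p = 7.24e-05). The most abundant, ADCY7 (log2 fold change 0.12, limma adjusted p = 0.0631) and ADCY9 (-0.10, limma adjusted p = 0.261), did not pass the test. ADCY7 did without DMSO replicate 1 (limma adjusted p = 0.00641), with quantile normalization (0.00797) and with median centring (0.0264), and ADCY9 did as lower with the length and GC correction (-0.20 on the log2 scale, limma adjusted p = 0.00292).

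Of 9 genes of PKA and its inhibitors, 4 were higher and 3 lower. PRKAR1A, the most abundant regulatory subunit, was at 6635 to 7200 normalized counts in DMSO and 9295 to 9884 in BRL-50481 (log2 fold change 0.47, limma adjusted p = 3.37e-06). The catalytic subunits went opposite ways. PRKACB, named after its values were seen, was at 772 to 926 in DMSO, against 1292 to 1407 in BRL-50481 (log2 fold change 0.69), and PRKACA differed by -0.14 on the log2 scale with overlapping groups (limma adjusted p = 0.0421), a call lost without DMSO replicate 2 (0.0684), BRL-50481 replicate 1 (0.148) or BRL-50481 replicate 3 (0.15), and with quantile normalization (0.182), median centring (0.103) or no trend (0.103). PRKAR2A had a log2 fold change of -0.08 and did not pass the test, although it did with the length and GC correction (-0.24, limma adjusted p = 0.0423), and its log2 fold change was 0.12 without DMSO replicate 1.

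Of 9 other cAMP effectors, 2 were higher and 3 lower. RAPGEF3, which encodes EPAC1, a cAMP-activated exchange factor for Rap proteins, was at 211 to 223 normalized counts in DMSO and 257 to 323 in BRL-50481 (log2 fold change 0.44, limma adjusted p = 0.00345). HCN3, of the hyperpolarization-activated, cyclic nucleotide-gated channel family, was at 250 to 317 in DMSO, against 143 to 153 in BRL-50481 (log2 fold change -0.97). POPDC3, a cAMP-binding membrane protein gene, had a log2 fold change of 0.15 and did not pass the test, although it did with quantile normalization (limma adjusted p = 0.0332), median centring (0.0467) and the length and GC correction (0.034).

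Of 15 anchoring proteins and other partners of phosphodiesterases, 6 were higher and 5 lower. AKAP12, an anchor of PKA and PDE4D, was at 4592 to 4832 normalized counts in BRL-50481 and 1142 to 1376 in DMSO, a log2 fold change of 1.92 (SE 0.07, limma adjusted p = 5.09e-10), the largest of that list. AKAP6, which holds PDE4D near PKA in muscle, rose by 1.12 on the log2 scale. PDE4DIP, a scaffold that binds PDE4D and was named after its values were seen, was at 937 to 1125 in DMSO, against 1793 to 1886 in BRL-50481 (log2 fold change 0.87). PDE4D had 0.88, above 92.1% of all genes tested, and a link between these genes was not tested.

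In the same list ARRB2, an arrestin that brings PDE4 to activated receptors, was at 1447 to 1781 normalized counts in DMSO and 732 to 793 in BRL-50481 (log2 fold change -1.08). AKAP1, a mitochondrial anchor of PKA, was at 4375 to 4811 in DMSO, against 2507 to 2784 in BRL-50481 (log2 fold change -0.80). RACK1, listed in the table as GNB2L1, had a log2 fold change of -0.13 (limma adjusted p = 0.0424) that turned to 0.03 with quantile normalization, and its call was lost without DMSO replicate 2 or 3 and without any 1 of the BRL-50481 libraries (0.0766 to 0.166), with median centring (0.108) and in limma without a trend (0.133). AKAP9 was not called (0.06 on the log2 scale) and turned to -0.20 with the length and GC correction, where it was called (limma adjusted p = 0.000555), and it was called as higher without DMSO replicate 1 (0.0207).

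In the cGMP branch, 1 of 7 genes was called. PRKG2, a cGMP-dependent protein kinase, was at 30.6 to 45.6 normalized counts in DMSO and 94.7 to 154 in BRL-50481 (log2 fold change 1.59, limma adjusted p = 4.45e-05), while NPR2 (-0.02, of either sign over the alternatives) and PRKG1 (0.26) did not pass the test.

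Of 8 genes of CREB and its coactivators, 3 were higher and 2 lower. CREB1 was at 1845 to 2381 normalized counts in DMSO and 2888 to 2937 in BRL-50481 (log2 fold change 0.49, limma adjusted p = 0.000124). The coactivator genes EP300 (log2 fold change 0.44) and CREBBP (0.24) were also higher, and the call of CREBBP was lost after the length and GC correction (limma adjusted p = 0.0885), without BRL-50481 replicate 3 (0.0572) and in limma without a trend (0.0666). The 2 lower genes, named after their values were seen, were CREM (log2 fold change -0.35, limma adjusted p = 0.000602) and CRTC2 (-0.37, limma adjusted p = 9.27e-05).

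Of 17 genes listed as cAMP-responsive and tested, 11 were lower, 2 higher and 4 not called, with a median log2 fold change of -0.39. Over all genes tested, 29.8% were lower and 28.9% higher, and the median was 0.01. FOSB, an immediate-early transcription factor, was at 503, 483 and 442 normalized counts in DMSO and 67.4, 60.4 and 71.7 in BRL-50481, a log2 fold change of -2.82 (SE 0.12, limma adjusted p = 1.64e-09). FOS (-1.44), the phosphatase gene DUSP1 (-1.26) and the nuclear receptor gene NR4A1 (-1.22) were lower too, each with no overlap between groups, as in 64.2% of all genes tested. Many of these genes respond to growth factor and stress signals as well as to cAMP. The paper reports raised cAMP and CREB phosphorylation after BRL-50481 in TNBC lines including MDA-MB-231, with cAMP measured at another dose. The mRNA levels of this list are no measure of cAMP, and why most of them were lower was not tested. AREG, an EGF receptor ligand and the most abundant of the list, was higher (log2 fold change 0.19, limma adjusted p = 0.0156), a call lost without BRL-50481 replicate 1 (0.0834), without BRL-50481 replicate 3 (0.0548) and in limma without a trend (0.0848), and CITED2 (-0.01, of either sign over the alternatives) did not pass the test. EGR1, the other gene called higher, was named after its values were seen. It was at 3227 to 3285 normalized counts in DMSO and 3965 to 4048 in BRL-50481 (log2 fold change 0.29, limma adjusted p = 0.000124).

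**Figure D5:**
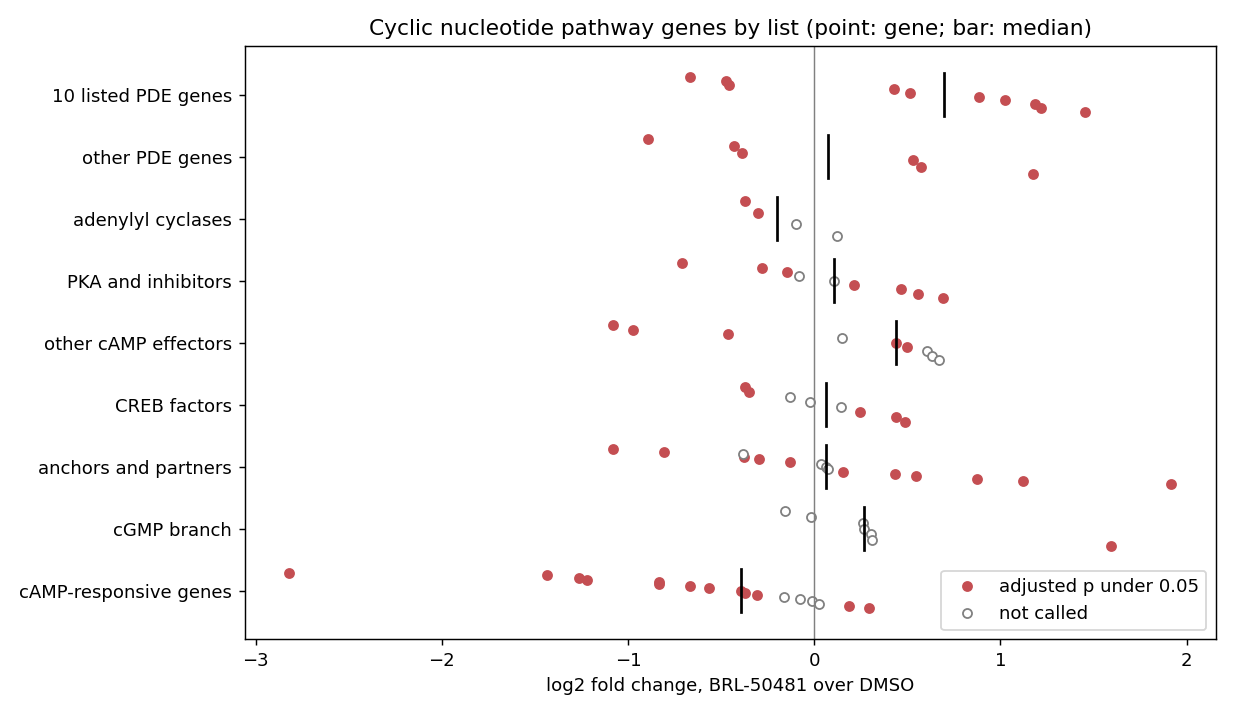
Log2 fold change of BRL-50481 over DMSO (horizontal axis) of each tested gene in 9 lists of the cyclic nucleotide pathway (rows), with red points for limma adjusted p under 0.05, open points for genes not called and a bar at each list's median. The members lie on both sides of 0 with none near it, and the cAMP-responsive genes lie mostly below 0, down to -2.82.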

How the data were processed

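RNA sequencing was analysed for 6 libraries of MDA-MB-231 cells, 3 given DMSO and 3 given BRL-50481, grouped by their labels. According to the Methods and the processing notes, the authors used STAR 2.7.1a to align 76-base single-end reads to hg38, counted them per gene with HTSeq in reverse-strand mode on the UCSC annotation, and normalized them with DESeq2 1.28. The deposited signal of a gene is its count divided by the library's size factor. In every library 100% of values equalled a whole number of reads (tolerance 0.001 reads). The deposited log2 fold changes, p-values and scores (standard error and Wald statistic) of the authors' own DESeq2 comparison were not used.

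Genes that reached a normalized count of 4 in 3 or more libraries were tested with limma 3.58.1 in R 4.3.3 (eBayes with a trend) on log2(normalized count + 1), which understates the change of low genes, and adjusted by the Benjamini-Hochberg method over 15246 genes at a threshold of 0.05. The procedure was also run on simulated counts given the same spread in both groups, unlike these libraries, and nothing is concluded from it here. Sums, shares and ratios were compared with exact permutation tests in Python 3.11.15, whose smallest p is 0.1. Lengths, positions and overlaps came from GENCODE release 44, matched for 96.5% of genes, and promoter windows from RefSeq. The replicates are described as biological, and p-values measure only the spread between these libraries.

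The members and lists were chosen with earlier results of these data known. Besides the members and other phosphodiesterase genes, the rule named the 3 most abundant genes of each list, genes called with an absolute log2 fold change of 1 or more and a mean normalized count of 100 or more, and the 3 genes most like PDE7A. Alternatives were other pseudocounts, filters and scalings, no trend, a replicate block, a length and GC correction (loess, span 0.5) and leaving out each library.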

Additional observations from a re-analysis of the deposited data

How the results depend on the processing

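Of the 10 members, 9 kept their direction and their call in all 15 alternatives to the limma test, and PDE5A lost its call in 4 of them. The length and GC correction moved the log2 fold change of every member downwards. Over 75 other genes of the lists and 1119 fits, 1012 kept direction and side of the threshold, 64 lost the call, 21 gained it and 22 turned in direction, of which 20 were of genes called neither in the main test nor in that alternative. The other 2 were RACK1 (GNB2L1), called in the main test, at 0.0275 with quantile normalization, and AKAP9, not called in the main test, at -0.197 with the length and GC correction. The log2 fold changes that turned without a call were those of AKAP7 (-0.0411), GUCY1A2 (-0.0253) and CITED2 (0.0300) with quantile normalization, CRTC1 (0.00948), NPR2 (0.0114) and CITED2 (0.0179) with median centring, and ARRB1 (-0.0934) and GUCY1A2 (-0.000292) with the length and GC correction. Leaving out each library gave values of both signs for PRKAR2A (-0.216 to 0.124), AKAP7 (-0.00374 to 0.111), GUCY1A3 (-0.528 to 0.432), NPR1 (-0.0922 to 0.569), NPR2 (-0.205 to 0.149), CITED2 (-0.0673 to 0.0210) and IER2 (-0.0490 to 0.0876). The cause was not tested.

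With the sum restricted to the 9 members that hydrolyse cAMP, the log2 difference of the summed signal was 0.233 in place of 0.291, and the shares of PDE7A, PDE4A and PDE4D differed by -2.84, -17.5 and 9.68 percentage points, since fewer genes enter the sum. Per kilobase, the shares of PDE7A and PDE4D differed by -1.80 and 5.03 points. Centring each library on its median, an alternative chosen after seeing the data, gave 0.322 for the log2 summed signal, and leaving out each library gave 0.264 to 0.329.

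Same-numbered libraries deviated together only weakly (correlations 0.121, 0.104 and 0.0510), so the numbers were not taken as pairs. Between DMSO and BRL-50481 libraries of different numbers the correlations were -0.159 to 0.061, so a weak pairing is not excluded. With the replicate block, 4440 genes were higher and 4589 lower, against 4400 and 4546 without it. The block left 7 members higher and 3 lower and the log2 summed signal at 0.291.

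The planned count-based tests with edgeR and DESeq2 and a TMM scaling were not run: 1 read is worth so nearly 1 normalized count that the required check of the recovered reads did not accept them. Residual SDs of log2 values were higher in DMSO (0.0964 to 0.141) than in BRL-50481 (0.0791 to 0.0832). PDE4C, PDE3A and PDE6A, with normalized counts under 20, are limited by depth. No group was large enough to test for an outlying library.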
